A study of Mus musculus with 4 samples.

Results

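The genes compared here encode potassium channels that set or shape the resting potential of heart cells: inward rectifiers of the Kir2 and Kir3 families, the pore and receptor subunits of ATP-sensitive (KATP) channels, and the two-pore channel gene Kcnk3. The members were taken by gene name, and all 10 (Kcnj2, Kcnj12, Kcnj14, Kcnj3, Kcnj5, Kcnj8, Kcnj11, Abcc8, Abcc9 and Kcnk3) were found among the 48432 gene rows of the deposited table. Polyadenylated RNA had been sequenced from cardiomyocytes, the beating muscle cells, released from mouse hearts by Langendorff perfusion. The 4 libraries formed 2 groups of 2, both from C57BL x FVB mice that ate a doxycycline diet for 3 days. The control group carried the genotype label MHC, and the other group, labelled RbFox2 and Rbfox2_OE, overexpressed RBFOX2, an RNA-binding regulator of splicing whose non-muscle isoform the series title names. The promoter that drives the transgene, the age and sex of the mice and the number of mice behind each library are not given in the sources used here.

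Inward rectifiers pass potassium more readily into the cell than out of it, and in heart muscle they hold the membrane near its resting potential between beats. Kir2 channels carry the steady resting current, Kir3 channels open when a muscarinic or adenosine receptor releases G protein subunits, and KATP channels, built from a Kir6 pore and a sulfonylurea receptor, open when ATP runs low. Two-pore channels such as the product of Kcnk3 pass a background current at all voltages.

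Each gene had 1 value per group, the authors' FPKM (sequenced fragments per kilobase of transcript, scaled by how many fragments mapped), with a lower and an upper bound whose level is not stated. Numbers in parentheses after an FPKM are those bounds. There was no value per library, so no test and no replicate spread can be given, and the depth in reads is unknown. Below, a log2 ratio is Rbfox2 OE over control after 1 FPKM was added to each value as a pseudocount, so differences of low genes are understated. Bounds are called separate when the upper bound of the lower group lies below the lower bound of the other. The overexpressed gene itself, Rbfox2, stood at 14.7 FPKM in control cells and 293 FPKM in Rbfox2 OE cells, as the labels say. Of the 9 ventricular cardiomyocyte markers, 7 had an estimate, led by Myl2 at 24688 FPKM in control cells and 18007 FPKM in Rbfox2 OE cells. The other 2, Myh6 and Mb, had the status HIDATA (too many fragments to estimate) and are listed at 0 in both groups. All 10 channel genes are annotated as protein-coding and had the status OK in both groups.

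Of the 10 channel genes, 8 stood at least 2-fold lower in Rbfox2 OE cells with separate bounds: Kcnj2, Kcnj12, Kcnj3, Kcnj5, Kcnj11, Abcc8, Abcc9 and Kcnk3. The KATP pore gene Kcnj8 was the exception among the expressed genes, at 5.28 FPKM in control cells and 6.58 FPKM in Rbfox2 OE cells. Kcnj14 was too low to compare. Genes were compared where the groups averaged 1 FPKM or more; 9 of the 10 did, and all 9 also reached 1 FPKM in each group, so none entered through 1 group alone. Over all 11697 genes compared, 10% were 2-fold lower and 9.33% were lower with separate bounds. In the other direction, 6.97% of all genes were 2-fold higher and 6.67% were higher with separate bounds, against 0 of the 9 channel genes by either criterion. The median log2 ratio of the 9 was -1.70, beside -0.06 over all genes compared, and 6 of the 9 lay below the 5th percentile of all genes, -1.35. Rescaling the groups without the mitochondrial and the 10 most abundant genes shifted log2 ratios by up to 0.16 and changed the balance over all genes. Of the 2-fold genes 59.0% were lower as deposited (815 higher, 1172 lower) and 46.3% after rescaling (1060 higher, 913 lower). The same 8 channel genes then passed both criteria, which 7.81% and 7.04% of all genes did. In RNA from many cells, fewer cells of a type and less RNA per cell cannot be told apart.

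**Figure D1:**
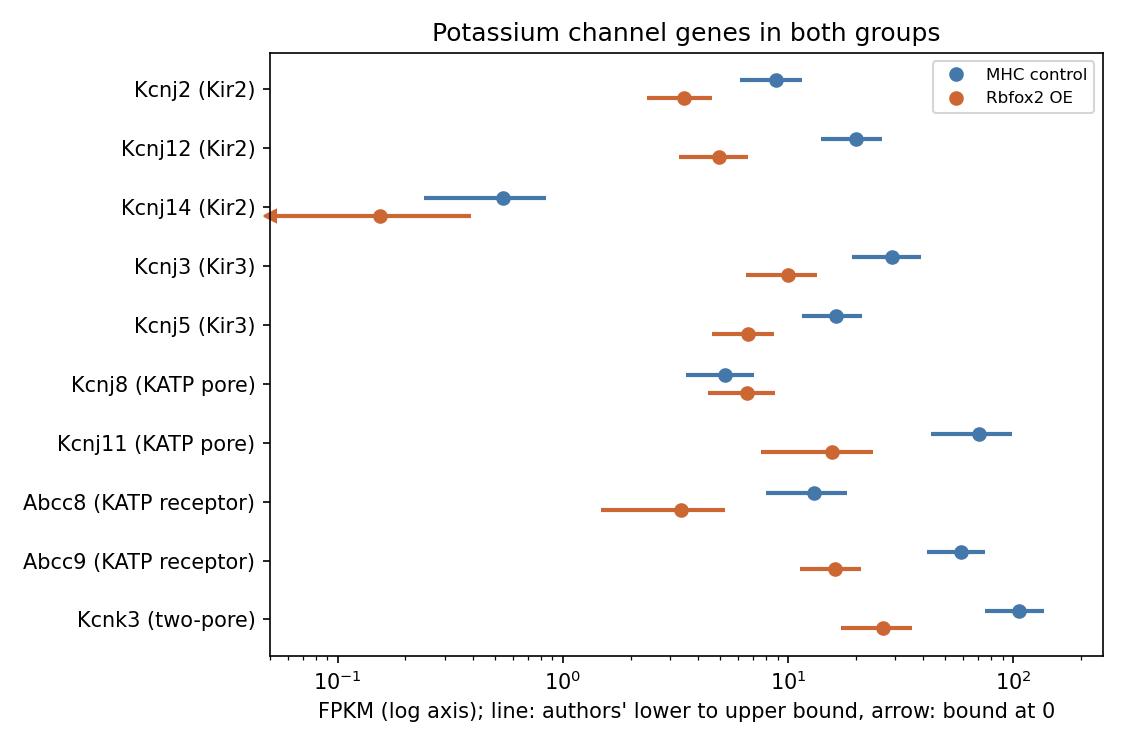
FPKM of the 10 channel genes in the MHC control (blue) and Rbfox2 OE (orange) on a log axis, with lines from the authors' lower to upper bound. The lines do not overlap for 8 genes, all lower in Rbfox2 OE cells, while those of Kcnj8 and Kcnj14 do, and an arrow marks the lower bound of Kcnj14 at 0.

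Kir2 genes encode the pore of the classical cardiac inward rectifier current. Kcnj12 (GRCm38 chromosome 11, 61022564 to 61071131, plus strand), which encodes Kir2.2, was the most abundant of the 3, at 20.2 FPKM in control cells (14.1 to 26.3) and 4.96 FPKM in Rbfox2 OE cells (3.27 to 6.64). The control value was 4.07 times the Rbfox2 OE value, a log2 ratio of -1.83, and the bounds of the groups were separate. Kcnj2 (chromosome 11, 111066164 to 111076821, plus strand), which encodes Kir2.1 and is mutated in Andersen-Tawil syndrome, stood at 8.83 FPKM (6.15 to 11.5) in control cells and at 3.47 FPKM (2.36 to 4.58) in Rbfox2 OE cells. This was a smaller difference, 2.54 times, with a log2 ratio of -1.14 and separate bounds. Kcnj12 was 2.28 times Kcnj2 in control cells and 1.43 times in Rbfox2 OE cells, but the ranges that the bounds allow, 1.22 to 4.28 and 0.714 to 2.81, overlapped. Kcnj14 (chromosome 7, 45816460 to 45824782, minus strand), which encodes Kir2.4, was scarce in both groups, at 0.540 FPKM (0.242 to 0.839) and 0.154 FPKM (0 to 0.389), and its bounds overlapped. Summed FPKM of the 3 Kir2 genes was 29.6 in control cells and 8.58 in Rbfox2 OE cells.

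Kir3 subunits form the muscarinic potassium channel, known chiefly from atrial and nodal cells, and the cardiac channel is an assembly of the products of Kcnj3 and Kcnj5. Kcnj3 (chromosome 2, 55435970 to 55598145, plus strand), which encodes Kir3.1, stood at 29.2 FPKM (19.2 to 39.1) in control cells and at 10.001 FPKM (6.53 to 13.5) in Rbfox2 OE cells. Kcnj5 (chromosome 9, 32314707 to 32344350, minus strand), which encodes Kir3.4, stood at 16.4 FPKM (11.5 to 21.3) and at 6.66 FPKM (4.61 to 8.72). The control was thus 2.91 and 2.46 times Rbfox2 OE, with log2 ratios of -1.45 and -1.18, and both genes had separate bounds. The level of Kcnj3 relative to Kcnj5 was 1.78 in control cells and 1.501 in Rbfox2 OE cells, with allowed ranges of 0.902 to 3.40 and 0.749 to 2.92. These ranges overlapped over most of their length. The long noncoding RNA gene Gm26794 overlaps the start of Kcnj3 on the opposite strand and stood at 0.134 FPKM and 0.103 FPKM. Both genes lay opposite in direction to the atrial markers, of which 7 of 7 compared were 2-fold higher with separate bounds. The summed FPKM of the 8 atrial markers was 244 in control cells and 3174 in Rbfox2 OE cells, and none of them was listed at 0. Nppa, the atrial natriuretic peptide gene, was the largest part of that sum in both groups, at 118 FPKM and 2178 FPKM. The part of atrial cells or atrial genes in the values of Kcnj3 and Kcnj5 was not tested.

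A cardiac KATP channel pairs a Kir6 pore with a sulfonylurea receptor, and the 4 genes lie as neighbouring pairs in the genome. On GRCm38, Kcnj11 (chromosome 7, 46093953 to 46100764, minus strand) lies 3758 bases from Abcc8 (46104523 to 46180033, minus strand). Kcnj8 (chromosome 6, 142564837 to 142571614, minus strand) lies 16247 bases from Abcc9 (142587862 to 142702315, minus strand). In each pair a pore gene of a single coding exon or 2 stands beside a receptor gene of 38 or more coding exons, and no other protein-coding gene lies between them.

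Kcnj11, which encodes Kir6.2, the pore of the ventricular and pancreatic KATP channel, had the largest difference of the 10 genes. It stood at 70.9 FPKM in control cells (43.1 to 98.6) and at 15.8 FPKM in Rbfox2 OE cells (7.63 to 23.9). The control was 4.50 times Rbfox2 OE, the log2 ratio was -2.10, and 1.08% of all genes compared had a ratio as low. Its neighbour Abcc8, which encodes the receptor SUR1, stood at 13.1 FPKM (8.001 to 18.2) and at 3.36 FPKM (1.47 to 5.24). The log2 ratio of Abcc8 was -1.70, the bounds were separate, and the level of Kcnj11 relative to Abcc8 was 5.40 in control cells and 4.69 in Rbfox2 OE cells. The upper bounds of this pair lay farther from the values than those of the other compared members. In the control the distance was 39.2% of the value for Kcnj11 and 39.0% for Abcc8, against 28.8% to 34.2% for the other 7, and in Rbfox2 OE cells it was 51.6% and 56.1%, against 30.3% to 34.7%.

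The second pair differed between its genes. Abcc9, which encodes SUR2, the receptor of cardiac and vascular KATP channels, stood at 58.5 FPKM in control cells (41.7 to 75.3) and at 16.2 FPKM in Rbfox2 OE cells (11.3 to 21.1). The control was 3.61 times Rbfox2 OE, with a log2 ratio of -1.79 and separate bounds. Kcnj8, which encodes Kir6.1, a pore known best from vascular smooth muscle and pericytes, stood at 5.28 FPKM (3.51 to 7.04) and at 6.58 FPKM (4.43 to 8.74). Its bounds overlapped and its log2 ratio was 0.27, so that neither direction can be read from it. The level of Abcc9 relative to Kcnj8 was 11.1 in control cells and 2.46 in Rbfox2 OE cells, and the allowed ranges, 5.92 to 21.5 and 1.29 to 4.77, did not overlap.

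The proportion of pore transcripts, which restates the Kcnj11 and Kcnj8 values given above, also differed. Kcnj11 made up 93.1% of the summed FPKM of Kcnj11 and Kcnj8 in control cells and 70.5% in Rbfox2 OE cells. The bounds allow 85.9% to 96.6% in control cells and 46.6% to 84.4% in Rbfox2 OE cells, 2 ranges that do not overlap. The proportion of receptor transcripts differed little. Abcc9 made up 81.7% of the summed FPKM of Abcc9 and Abcc8 in control cells and 82.8% in Rbfox2 OE cells, with overlapping ranges of 69.6% to 90.4% and 68.3% to 93.5%.

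Kcnj8 and Abcc9 are also expressed by mural cells, and markers of these cells stood higher in Rbfox2 OE cells. All 8 pericyte and smooth muscle markers had a log2 ratio above 0, with 3 separate by bounds, a median of 0.81 and none listed at 0. Their summed FPKM was 145 in control cells and 327 in Rbfox2 OE cells, a ratio of 2.26, beside 1.25 for Kcnj8 and 0.277 for Abcc9. The pericyte marker Rgs5 alone stood at 71.9 FPKM (51.4 to 92.4) and 127 FPKM (90.5 to 164), with overlapping bounds. The part of these cells in the values of Kcnj8 and Abcc9 was not tested.

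Because the neighbours Abcc9 and Kcnj8 parted, their promoters are shown as RefSeq gives them on GRCm38.p6, over 300 bases around the start, 5′ to 3′. The table held a promoter for 6 of the 10 genes. Capitals mark GGGCGG, the GC box, on either strand.

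Abcc9 (chr6:142702225-142702524, minus strand): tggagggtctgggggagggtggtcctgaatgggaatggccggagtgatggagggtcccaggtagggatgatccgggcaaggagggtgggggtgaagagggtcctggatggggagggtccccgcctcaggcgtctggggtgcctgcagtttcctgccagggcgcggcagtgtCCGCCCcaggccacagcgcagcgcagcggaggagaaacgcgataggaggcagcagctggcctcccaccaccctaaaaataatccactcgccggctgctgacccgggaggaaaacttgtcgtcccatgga

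Kcnj8 (chr6:142571565-142571864, minus strand): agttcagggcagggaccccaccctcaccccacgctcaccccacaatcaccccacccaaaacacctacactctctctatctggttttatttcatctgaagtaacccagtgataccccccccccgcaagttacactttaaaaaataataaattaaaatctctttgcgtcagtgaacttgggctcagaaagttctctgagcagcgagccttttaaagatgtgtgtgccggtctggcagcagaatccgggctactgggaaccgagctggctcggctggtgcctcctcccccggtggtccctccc

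The Abcc9 window was 65.7% G and C with 16 CpG dinucleotides and held 1 GC box, while the Kcnj8 window was 53.3% G and C with 9 CpG dinucleotides and held 0. The median over all 32851 promoters of the table was 52.7% G and C. GC boxes were found in 4 of the 6 members' windows and in 35.7% of all promoters. Besides Kcnj8, the window without one was that of Kcnj12, with 4 CpG dinucleotides, a gene lower in Rbfox2 OE cells (log2 ratio -1.83). Any relation of these promoter features to the ratios was not tested. Searched the same way on both strands, CACGTG was found in 1 of the 6, Kcnj2, and in 7.15% of all promoters. TATAAA and AGATAA were found in 0 of the 6, against 13.6% and 11.2% of all promoters. The motifs searched cannot overlap one another except at single bases.

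Kcnk3 (chromosome 5, 30588170 to 30625271, plus strand), which encodes the acid-sensitive background channel TASK-1, was the most abundant of the 10 genes in both groups. It stood at 106 FPKM in control cells (75.3 to 137) and at 26.4 FPKM in Rbfox2 OE cells (17.3 to 35.5). The control was 4.03 times Rbfox2 OE and the log2 ratio was -1.97. With the pseudocount, Kcnk3 was the one of the 8 genes whose nearest bounds also lay past 2-fold, at a log2 ratio of -1.06, as did those of 1.17% of all genes compared. Kcnj12 followed at -0.98, and without the pseudocount its nearest bounds were past 2-fold too. The antisense transcript Gm9899 overlaps the start of Kcnk3, and it stood at 7.77 FPKM in control cells and 2.47 FPKM in Rbfox2 OE cells. Of the distinct 50-base words of Kcnk3 transcripts, 4.89% also occur in other genes, and how fragments were assigned between Kcnk3 and Gm9899 is not given in the sources used here.

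Kcnk3 came first and Kcnj14 last in the order of levels in both groups, while most steps between neighbours were not resolved by the bounds. In the control the genes ran from Kcnk3 through Kcnj11, Abcc9, Kcnj3, Kcnj12, Kcnj5, Abcc8, Kcnj2 and Kcnj8 to Kcnj14. Neighbours in that order had overlapping bounds in 7 of 9 steps, the exceptions being Abcc9 above Kcnj3 and Kcnj8 above Kcnj14. In Rbfox2 OE, Kcnj8 moved from rank 9 to rank 6, above Kcnj12, Kcnj2 and Abcc8. Kcnj12 moved from rank 5 to 7, Abcc8 from 7 to 9 and Kcnj5 from 6 to 5, while Kcnj11 and Abcc9 exchanged ranks 2 and 3. Neighbours in Rbfox2 OE overlapped in 8 of 9 steps. The 10 genes together summed to 329 FPKM in control cells and 93.6 FPKM in Rbfox2 OE cells.

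**Figure D2:**
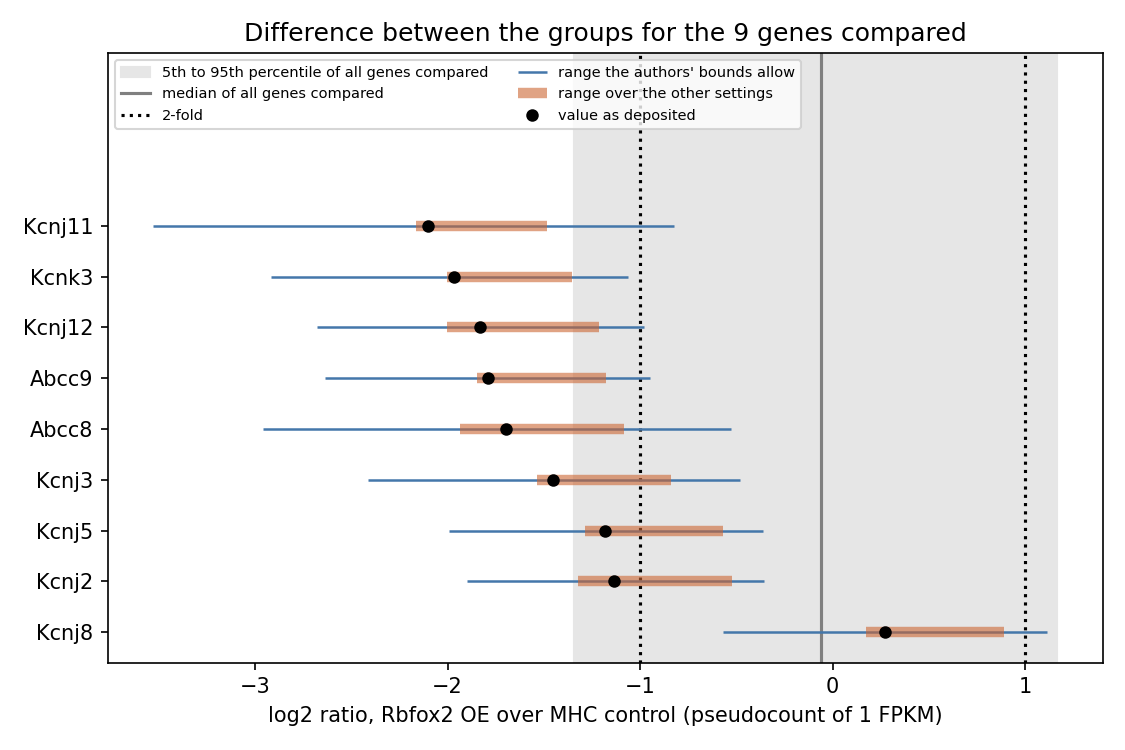
Log2 ratio of Rbfox2 OE over control (points), the range the authors' bounds allow (blue lines) and the range over the processing settings (orange bars) for the 9 genes compared. From Kcnj11 at -2.10 to Kcnj2 at -1.14 the points of 8 genes lie below the 2-fold line at -1, and Kcnj8 lies at 0.27.

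The 8 genes also differed among themselves in how far below the other genes they lay. Kcnj11, Kcnk3, Kcnj12, Abcc9 and Abcc8 lay between -2.10 and -1.70, where at most 2.22% of all genes compared were as low. Kcnj3 followed at -1.45, with 3.78% of all genes as low. Kcnj5 at -1.18 and Kcnj2 at -1.14 were nearest the threshold, with 6.95% and 7.62% of all genes as low. The ranges from the bounds overlapped among all 8, so an order among them is not resolved. Kcnj11 and Kcnj8, with the lowest and the highest log2 ratio of the channel genes compared, span 6812 and 6778 bases. Any relation of gene length to the ratios was not tested.

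**Figure D3:**
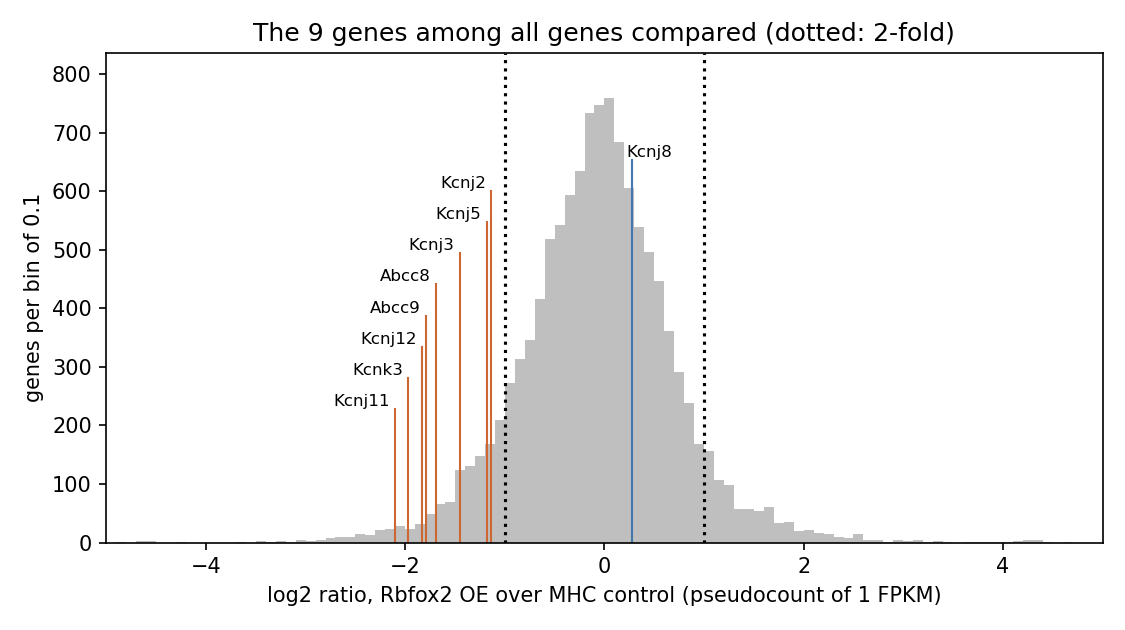
Histogram of log2 ratios (horizontal axis, pseudocount of 1 FPKM) of all 11697 genes compared, in bins of 0.1 (vertical axis, genes), with the channel genes marked as lines of arbitrary height. The 8 orange lines lie left of the 2-fold line at -1, and Kcnj8 (blue) lies near the middle of the distribution.

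RBFOX proteins bind the RNA word UGCAUG, written TGCATG in DNA letters, and the 3′ untranslated regions of the members' longest coding transcripts (GENCODE M21) were searched for it because the series alters RBFOX2. The word occurred in 4 of the 10 genes: 3 times in Kcnj3 and once each in Kcnj2, Kcnj5 and Kcnk3. Over the genes compared, 31.9% held at least 1, at 0.350 per kilobase. Kcnj3 held 1.09 per kilobase, Kcnk3 0.411, Kcnj5 0.348 and Kcnj2 0.267, and the other members held 0. The regions of these 4 genes were 2434 to 3751 bases long, against a median of 958 bases over the genes compared. The part of length in the matches was not tested. The matches are shown 5′ to 3′ with the word in capitals and the base of the 3′ untranslated region where it starts.

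Kcnj2, base 2835: agacataggtaaTGCATGgcatctcttcct

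Kcnj3, base 544: ttgtatttcttgTGCATGtttactttatta

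Kcnj3, base 2068: taacaaaattttTGCATGccttctttgacc

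Kcnj3, base 2522: cagtatgatttcTGCATGtacttgcagttt

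Kcnj5, base 1871: gtgtgtgtgttgTGCATGtctgtgagtgtg

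Kcnk3, base 624: ccttctgtttttTGCATGgctatgcagtta

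Among the 5 genes with the lowest ratios, Kcnk3 held a match, while Kcnj11, Kcnj12, Abcc9 and Abcc8 had 0 in 1629, 660, 2504 and 42 bases. Kcnj8 also had 0, in 768 bases. A match is a run of letters and not a measured binding site.

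The other members of the 2 channel families were scarce. Of the 8 other inward rectifier genes 0 reached a mean of 1 FPKM, and 4 were listed at 0 in control cells. Kcnj4, which encodes Kir2.3 and was singled out after its values were seen, stood at 1.11 FPKM (0.610 to 1.60) in control cells and at 0.0769 FPKM (0 to 0.155) in Rbfox2 OE cells. Of the 13 other two-pore channel genes 1 was compared, Kcnk6, at 0.946 FPKM and 1.84 FPKM, with overlapping bounds. Kcnk13, also singled out after its values were seen and too low to compare, stood at 0.132 FPKM (0.0090 to 0.256) in control cells and at 0.616 FPKM (0.320 to 0.912) in Rbfox2 OE cells, so its bounds were separate in the other direction.

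The G protein pathway that opens Kir3 channels was split. Of its 12 genes 11 were compared, of which 3 were 2-fold lower, 0 were 2-fold higher and 4 were lower with separate bounds, with a median log2 ratio of 0.04. The shares among all genes compared were 10%, 6.97% and 9.33%. The receptors were among the lower genes. Chrm2, the muscarinic receptor gene of heart muscle, stood at 25.8 FPKM in control cells and 5.14 FPKM in Rbfox2 OE cells, a log2 ratio of -2.13. Adora1, an adenosine receptor gene, stood at 7.46 FPKM and 1.52 FPKM, a log2 ratio of -1.75. Rgs6 and Gnb5, whose products form a complex that shortens G protein signals, lay at -1.16 and -0.99 on the log2 scale, and their bounds were separate too. The other Rgs genes of the list, Rgs10 and Rgs4, lay in the other direction, at 0.94 and 0.64, with overlapping bounds. Without the pseudocount, Rgs10 in Rbfox2 OE cells was 2.34 times its control value. The other G protein subunit genes compared lay within 2-fold, with Gnai2 at 135 FPKM and 163 FPKM and Gnb1 at 40.4 FPKM and 63.5 FPKM.

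Genes for anchoring and trafficking partners of these channels did not lie lower as a list. Of 14 compared, 2 were 2-fold lower and 1 was 2-fold higher, and the median log2 ratio was 0.40. Among all genes compared, 10% were 2-fold lower and 6.97% were 2-fold higher, so these counts lie near the general shares. Ank2, which encodes ankyrin-B, an anchor of Kir6.2, stood at 86.4 FPKM (26.4 to 146) in control cells and 9.30 FPKM (1.97 to 16.6) in Rbfox2 OE cells. Its log2 ratio was -3.09, but these wide bounds allow -5.63 to -0.64, so a 2-fold difference is not secured. The log2 ratio of Copb1, a coat protein gene of retrograde transport, was 0.87, and the bounds of both genes were separate. Flna, which encodes filamin A, was the gene 2-fold higher, at 1.32, with overlapping bounds. Of 4 kinases on the synthesis route of the phosphoinositide PIP2, on which Kir channels depend, 2 were 2-fold lower. The log2 ratio of Pip5k1b was -1.30 with separate bounds. Pi4ka, whose product is a precursor of PIP2, lay at -1.22 with overlapping bounds. Pip5k1a and Pip5k1c lay at 0.12 and -0.004, also with overlapping bounds.

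**Figure D4:**
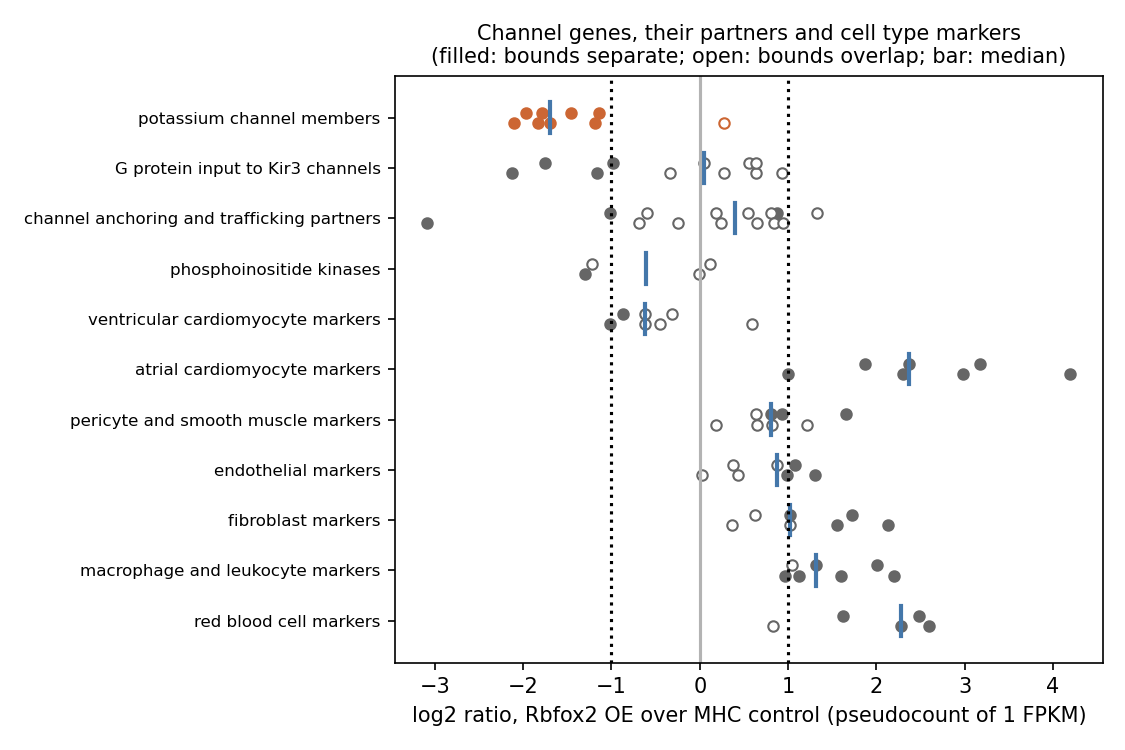
Log2 ratio of each gene compared (horizontal axis, pseudocount of 1 FPKM) in the channel genes, 3 lists of partners and 7 lists of cell type markers; filled points have separate bounds and the bar is the median. The channel genes have a median of -1.70, the ventricular markers -0.62 and the atrial markers 2.38.

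Markers of the other cells of the heart stood higher in Rbfox2 OE. The summed FPKM of endothelial markers was 198 in control cells and 347 in Rbfox2 OE cells, with 7 of 7 log2 ratios above 0. That of fibroblast markers was 206 and 471, with 7 of 7 above 0. That of macrophage and leukocyte markers was 102 and 349, with 7 of 7 above 0, and that of red blood cell markers was 56.6 and 295, with 5 of 5 above 0. In that order, 2, 5, 6 and 4 markers were 2-fold higher, and 3, 4, 6 and 4 were higher with separate bounds. Over all genes compared, these shares were 6.97% and 6.67%. None of these markers was listed at 0 in either group, and the part of these cells in the channel values was not tested. Neuron and glia markers summed to 8.85 FPKM and 12.3 FPKM, with 4 of 5 below 1 FPKM in both groups.

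Most ventricular markers were lower, but as a list less so than the channel genes. The 7 with an estimate summed to 49125 FPKM in control cells and 33520 FPKM in Rbfox2 OE cells, their median log2 ratio was -0.62, and 6 of 7 were below 0. Of the 7, 1 was 2-fold lower and 2 were lower with separate bounds, and Ttn was higher, at 0.60 with overlapping bounds. The median was the value of Irx4, whose bounds overlapped and allow -1.47 to 0.23. When the log2 ratios were centred on that median, a setting chosen after the data were seen, 5 of the 9 channel genes remained 2-fold lower: Kcnj11, Kcnk3, Kcnj12, Abcc9 and Abcc8, with log2 ratios from -1.49 to -1.08. That centring raised every log2 ratio by 0.62. Over all genes compared, 311 (2.66%) were then 2-fold lower, while 3209 were past 2-fold in either direction, against 1987 as deposited. With the values and bounds scaled by the same factor, 4 of the 5 channel genes, all but Abcc8, kept separate bounds, as 3% of all genes did. Kcnj3, Kcnj5 and Kcnj2 were then at -0.84, -0.57 and -0.52, and Kcnj8 was at 0.89.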

How the data were processed

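The deposited FPKM values and bounds follow Cuffdiff's layout, per the file headers; the submitters' processing notes name Cuffdiff 2.2.1, STAR 2.4.2a, and the build GRCm38. Libraries were TruSeq stranded, per the labels' protocols; strand use in counting, the annotation and the normalization mode are not given in the sources used here. The table held 1 value per group and gene, so limma, the planned test, could not be fitted. Depth in reads is unknown.

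From the deposited FPKM values, log2 ratios were computed with a pseudocount of 1 FPKM (Python 3.11.15, pandas 2.3.3), after rows of the same gene name (110 names) were summed. Genes averaging 1 FPKM or more over both groups were compared, at a 2-fold threshold and by separate bounds. Positions, overlaps and transcripts came from GENCODE M21 on GRCm38. All 10 members are named, and up to 5 genes per list with separate bounds; 1 gene that this rule chose is not reported here. Members and lists were chosen with earlier results of these data known. Alternatives covered pseudocount, scaling, filters and threshold. The calculations were tested on simulated data with a pseudocount far below 1 FPKM and noise sized from the authors' bounds. The reported pseudocount and the meaning of the bounds were not tested there.

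Kcnj3 shares 29.3% of its 50-base words with the overlapping antisense Gm26794 (0.134 and 0.103 FPKM), and Kcnj14 30.8% with the pseudogene Gm5522. Genes overlapping Abcc8 and Abcc9 stood below 0.1 FPKM.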

Additional observations from a re-analysis of the deposited data

How the results depend on the processing

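No paired analysis was possible because each group has a single pooled value, which also means that no library could be left out. The count of 8 channel genes 2-fold lower became 1 (Kcnj11) at a 4-fold threshold on the pseudocount ratio, while the plain ratios of Kcnj12 and Kcnk3 (4.07 and 4.03) also pass it, and 5 when centred on ventricular markers, where the count with separate bounds went from 8 to 4; a pseudocount of 5 FPKM gave 6, without Kcnj2 and Kcnj5. The same 8 genes passed under the other 8 planned settings. Rescaling without mitochondrial and the 10 most abundant genes shifted log2 ratios by up to 0.16 and changed no channel gene's side of the threshold. The count of all genes past the threshold, 1987, was 4520 at 1.5-fold, 290 at 4-fold, 863 with a pseudocount of 5 FPKM and 3209 when centred on ventricular markers. Each of these changes in the count over all genes follows from the calculation. Fewer or more genes pass another threshold, a larger pseudocount draws log2 ratios toward 0, and centring on ventricular markers adds 0.62 to every log2 ratio. Unknown depth limits values near 0, such as Kcnj14, most.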
